A study of Mus musculus with 57 samples.

Results

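Colon from mice whose epithelium lacks the insulin receptor was compared with colon from their floxed controls after a carcinogen and an injury. The comparison used 20 of the 57 samples of the study, chosen by their titles: 10 labelled colon DSS AOM colitis villin-CRE-INSR-/- (called knockout here) and 10 labelled INSRfl/fl, tumors excluded. All 22180 genes with a probe set of exactly 1 symbol were measured on whole-transcript microarrays, each through its brightest probe set. The mice were adult C57BL/6 females of 18 to 24 weeks. Both groups, littermates per the labels, carried the Insr gene flanked by loxP sites, and the knockout mice also carried Cre recombinase under the villin promoter, which is active in the epithelium of the small intestine and colon. Both received AOM (azoxymethane, a colon carcinogen) at 7.4 mg/kg and, in week 2, 3% DSS (dextran sulfate sodium, which injures the colon epithelium) for 7 days. Distal colon was taken in week 5, which the labels place 3 weeks past the end of DSS. No group labelled with Cre and an intact Insr gene was analysed here, so an effect of Cre alone and loss of Insr cannot be told apart. The 10 untreated samples of each genotype and the tumors (9 knockout and 8 fl/fl) served only to set the difference beside other conditions.

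The insulin receptor is a tyrosine kinase of the cell surface. On binding insulin it phosphorylates adaptors of the IRS family, which activate PI3 kinase and AKT, and AKT keeps FoxO transcription factors out of the nucleus and drives glucose and lipid use. The receptor of insulin-like growth factor 1 is a close relative that shares these adaptors, and binding proteins of the IGFBP family control how much of that growth factor reaches it. In the colon, surface epithelial cells absorb sodium and water and burn fatty acids, and after DSS the mucosa fills with leucocytes and activated stroma while the crypts are rebuilt.

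The level of a gene is given below as its log2 array value, and a difference as knockout minus fl/fl on the log2 scale ± SE from limma, so that a difference of 1 is a doubling of the linear value. A gene was called when its p, adjusted over all 22180 genes by the Benjamini-Hochberg method, was under 0.05. The SE and p use the spread over all 57 samples, not over the 20 compared alone. Where a gene varied more in those 20, they are smaller than the 20 alone would give. Samples are whole tissue, so fewer cells of a type and less RNA per cell cannot be told apart. Transcripts of small-intestinal enterocytes were high in fl/fl replicate 7 (list mean 10.08) and knockout replicate 10 (9.16), against 6.32 to 8.09 in the other 18 samples, which does not match the labelled distal colon. Transcripts of squamous epithelium ranged from 5.11 to 9.08 across the 20 samples, with no member of that list called. The mean of the pan-epithelial list lay between 10.99 and 11.37 in knockout and 11.07 and 11.38 in fl/fl samples, with 3 knockout samples below the lowest fl/fl sample. Of its 14 genes 13 had a difference below 0 (median -0.047), and none was called. Vil1, whose promoter drives the Cre, differed by -0.063 ± 0.065 (adjusted p = 0.762).

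Insr itself was lower in knockout colon. No source used here says which exons its probe set covers. Its level was 7.52 in the lowest, 7.72 in the median and 7.96 in the highest knockout sample, against 8.28, 8.51 and 8.94 in fl/fl samples. The groups did not overlap. The difference was -0.84 ± 0.098 (adjusted p = 2.32e-07), and by a permutation test of 100000 rearrangements of the 20 samples, two-sided, p was 2e-05. The knockout signal was 55.8% of the fl/fl signal, in tissue that also holds cells in which villin is not active. Over the 35 alternatives described at the end, the difference stayed between -0.874 and -0.794 and was called in each.

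The related receptor gene Igf1r was at 7.71, 7.94 and 8.25 (lowest, median and highest) in knockout and 7.34, 7.73 and 8.01 in fl/fl samples. Its groups overlapped widely, with 9 of 10 knockout samples above the fl/fl median and 3 above the highest fl/fl sample. The difference of 0.22 ± 0.092 was not called over all genes (adjusted p = 0.272), while the permutation test of this gene alone gave p = 0.00633, or 0.0127 after adjustment over the 4 genes tested that way. Those 4 include Insr, the deleted gene, whose small p lowers the adjusted value of Igf1r. The adaptor Irs2 differed by 0.23 ± 0.14 and the adaptor Irs1 by 0.03 ± 0.087 (permutation p = 0.174 and 0.743). In untreated colon Igf1r differed by 0.26 and Irs2 by 0.53, with unadjusted p of 0.0075 and 0.000269 and no call. Of the 40 listed genes of the insulin receptor pathway, 35 had a value and Insr was the 1 called. The next smallest p belonged to Pik3r3, a regulatory subunit of PI3 kinase (-0.28 ± 0.077, adjusted p = 0.0671), and to Inpp5d, a lipid phosphatase of blood cells (0.36 ± 0.10, adjusted p = 0.0755). The median difference of the 35 genes was 0.02, beside -0.001 for all genes tested, and it turned to -0.006 with every array shifted to 1 median. Of 24 FoxO target genes, 2 were called lower, and they were Insr and Cat, which encodes catalase (-0.21 ± 0.052, adjusted p = 0.0445).

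**Figure D1:**
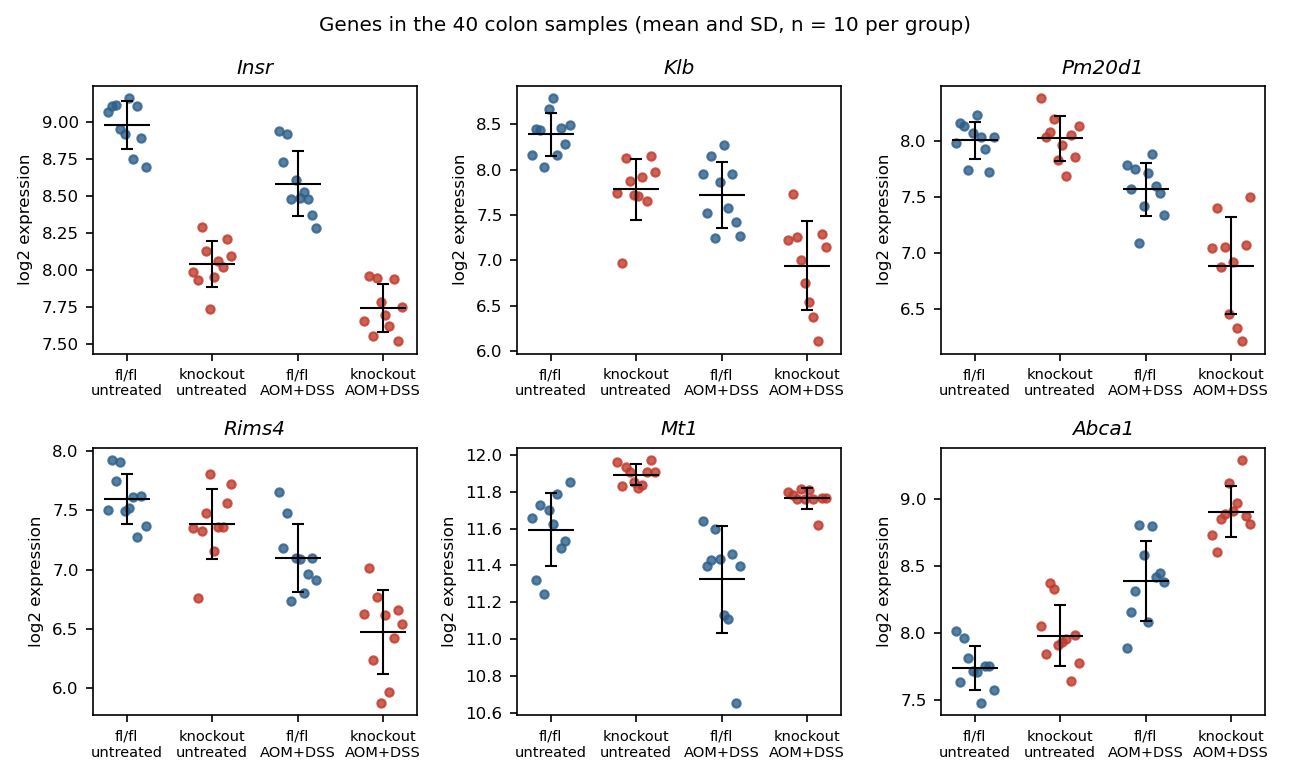
Log2 expression (y axis) of Insr and 5 further genes in each of the 40 colon samples by genotype and treatment (x axis); points are samples, bars the mean and SD, n = 10 per group. In AOM+DSS colon, Insr did not overlap between genotypes, and knockout Mt1 sat between 11.62 and 11.81 while fl/fl samples reached down to 10.65.

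In all, 120 genes were called, 0.541% of those tested: 93 higher (0.419%) and 27 lower (0.122%) in knockout colon. At an unadjusted p under 0.05 there were 2898 genes (13.1%), 1566 higher (7.06%) and 1332 lower (6.01%). The rises were small: none reached 2-fold, 15 reached 1.5-fold, and the median was 0.44. Among the falls, 3 reached 2-fold and 10 reached 1.5-fold, with a median of -0.50. The balance of the calls depended on the scaling. With every array shifted to 1 median, 45 genes were called, 24 higher and 21 lower, so that 53.3% instead of 77.5% were higher. Non-overlap was rarer: 3 genes (0.0135%) had no overlap between the groups, Insr and Hacd3, an enzyme of very long chain fatty acid synthesis, lower and the olfactory receptor gene Olfr164 higher. Olfr164 was near the lower end of the array scale in both groups (means of 3.36 and 3.04), and Hacd3 was not called (-0.28 ± 0.084, adjusted p = 0.084; -0.29 in untreated colon).

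The number of calls rested heavily on single samples. It was 9 without fl/fl replicate 2 or knockout replicate 8, 10 without fl/fl replicate 1 or 3, 11 without knockout replicate 7, 19 without knockout replicate 5, 21 without fl/fl replicate 5, 28 without knockout replicate 6, 42 without fl/fl replicate 8, 61 without knockout replicate 1 and 66 without knockout replicate 4. It was 262 without fl/fl replicate 10, 303 without knockout replicate 2, 305 without knockout replicate 3 and 816 without fl/fl replicate 4. Without both samples rich in small-intestinal transcripts, 180 genes were called. All 120 genes had an unadjusted p under 0.01 by limma when the 20 samples were fitted without the other 37. They were picked from these same 20 samples, with the same differences of means, so this is no further support for them. In that fit 2 of the 120, Insr and Gm1123, kept an adjusted p under 0.05. The lowest adjusted p of the 93 rises there was 0.0765. Called with each of the 20 samples left out in turn were 9 genes: Insr, Klb, Pm20d1, Rims4, Gm1123, Mt1, Abca1, Rcsd1 and Olfr164.

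**Figure D2:**
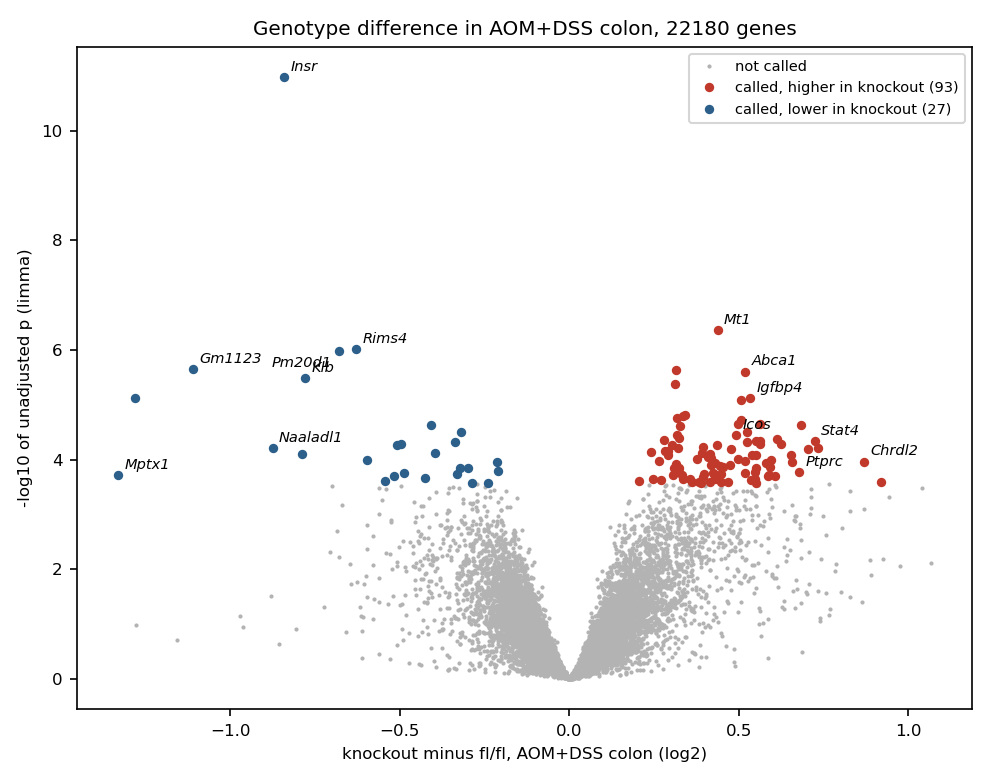
Difference between knockout and fl/fl AOM+DSS colon (x axis, log2) against the −log10 of the unadjusted limma p (y axis) for 22180 genes; red and blue points are the 93 higher and 27 lower called genes. Insr stood alone at the top, and the red points lay below a difference of 1.

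The 15 largest falls spanned secreted proteins, enzymes and transporters, and Insr was 1 of them. Mptx1, a pentraxin secreted by the colon mucosa, was at 6.29, 8.28 and 9.30 (lowest, median, highest) in knockout and 8.12, 9.54 and 10.68 in fl/fl samples, a fall of 1.33 ± 0.33 on the log2 scale (adjusted p = 0.045). All 10 knockout samples lay below the fl/fl median and 4 below the lowest fl/fl sample. Klb, the beta-Klotho co-receptor of endocrine fibroblast growth factors, was at 6.11, 7.08 and 7.73 in knockout and 7.24, 7.72 and 8.27 in fl/fl samples (-0.78 ± 0.15, adjusted p = 0.00906), and 7 of its knockout values were below every fl/fl value. Pm20d1, a secreted enzyme that makes N-acyl amino acids, was at 6.21, 6.98 and 7.50 against 7.09, 7.58 and 7.89 (-0.68 ± 0.12, adjusted p = 0.00569). Rims4, of a family of synaptic active zone proteins, was at 5.87, 6.58 and 7.02 against 6.73, 7.09 and 7.66 (-0.63 ± 0.11, adjusted p = 0.00569). For both genes, 8 of 10 knockout values were lower than any fl/fl value.

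Clps, the colipase that assists fat digestion, fell by 0.79 ± 0.18, and Naaladl1, a brush border peptidase, fell by 0.88 ± 0.20. Naaladl1 is better known from the small intestine. Clps and Naaladl1 kept their call without the 2 samples rich in small-intestinal transcripts (-0.78, adjusted p = 0.043, and -0.84, adjusted p = 0.0399). Slc4a4, a sodium bicarbonate cotransporter, fell by 0.51 ± 0.12, the mitochondrial carrier Slc25a34 by 0.50 ± 0.11, and Cox7a1, a subunit of cytochrome c oxidase, by 0.49 ± 0.12. The cytochrome P450 gene Cyp2c40 fell by 0.60 ± 0.14 from a dim fl/fl mean of 3.93. The uroplakin Upk1a (-0.52 ± 0.13), the immunoglobulin superfamily member Igsf23 (-0.54 ± 0.14), Gm1123 (-1.11 ± 0.21, adjusted p = 0.00782) and 5430427M07Rik (-1.28 ± 0.26) completed the 15. In 13 of the 15 the lowest knockout sample was 1 of replicates 5 to 8, and in 11 the lowest fl/fl sample was replicate 4. Without that fl/fl sample Mptx1 differed by -1.49 and Naaladl1 by -1.02. Adjusted p of the 15 ranged from 2.32e-07 to 0.0491.

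**Figure D3:**
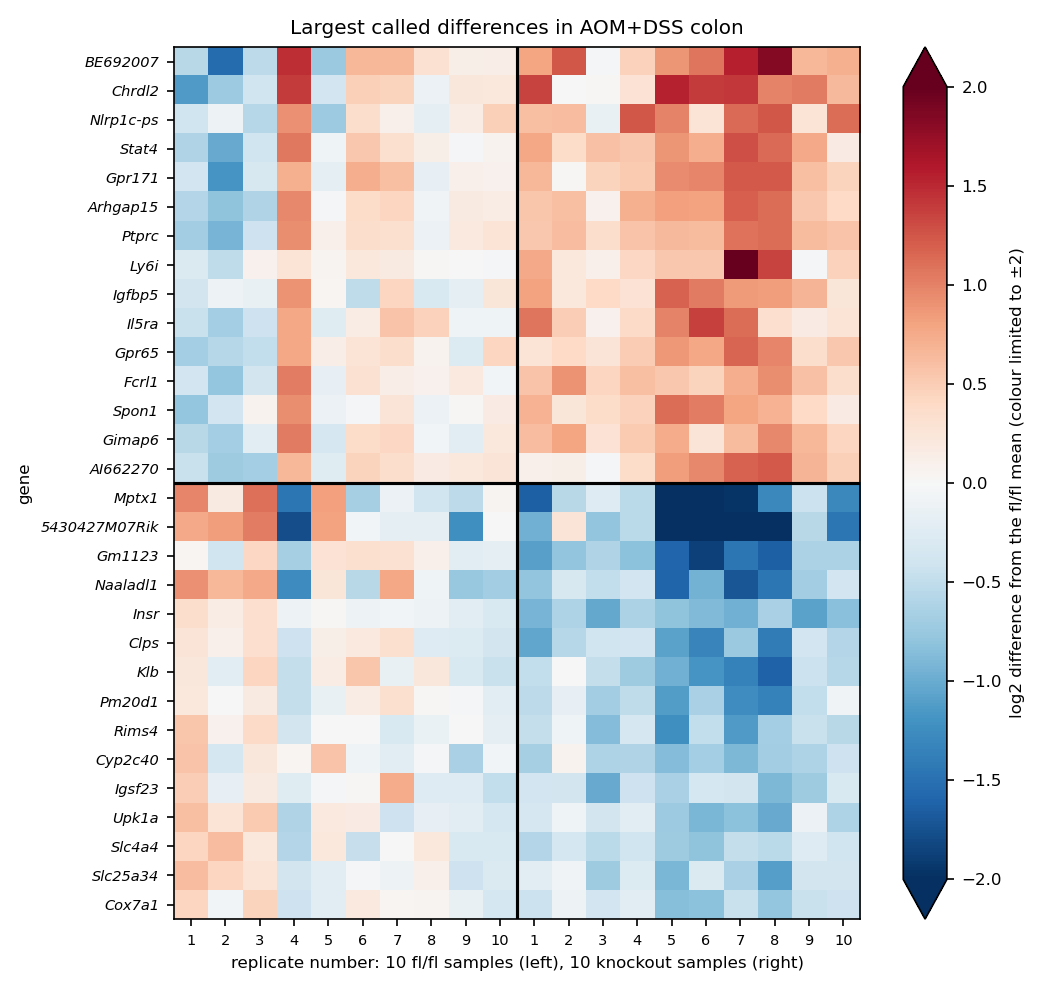
Log2 difference from the fl/fl mean (colour, limited to ±2) of the 15 called genes with the largest rise and the 15 with the largest fall (rows) in the 10 fl/fl and 10 knockout AOM+DSS samples (columns). Fl/fl replicate 4 was nearer the knockout mean than the fl/fl mean in 26 of the 30 rows, and not in that of Insr.

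The fatty acid oxidation and ketogenesis list, which holds enzymes by which colonocytes burn fatty acids, had 21 of 25 genes with a value, and 20 of the 21 had a difference below 0. One was called: Ppara, a nuclear receptor that drives this pathway, was at 6.19, 6.37 and 6.46 in knockout and 6.39, 6.73 and 6.95 in fl/fl samples, a fall of 0.33 ± 0.083 (adjusted p = 0.0448). At an unadjusted p under 0.05, 11 were lower and 1 higher. Next in order were the thiolase Acaa2 (-0.33 ± 0.085, adjusted p = 0.0515), the ketone body enzyme Bdh1 (-0.29 ± 0.078, adjusted p = 0.0636) and the bifunctional enzyme Ehhadh (-0.31 ± 0.093, adjusted p = 0.0883). The median was -0.19. The list mean was lower than the fl/fl median in 9 of 10 knockout samples, and fl/fl replicates 1 and 3 were the highest at 9.86 and 9.79.

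For the respiratory chain, which passes electrons from fuel to oxygen in mitochondria, all 24 genes with a value had a difference below 0, with a median of -0.13, and 17 were lower at an unadjusted p under 0.05. One was called: Ndufa1, a subunit of complex I, was at 9.01, 9.18 and 9.49 in knockout and 9.16, 9.50 and 9.82 in fl/fl samples, a fall of 0.32 ± 0.071 (adjusted p = 0.0303). Behind it were the cytochrome c oxidase subunits Cox5b (-0.22 ± 0.065, adjusted p = 0.0913) and Cox4i1 (-0.22 ± 0.077, adjusted p = 0.147) and Uqcrfs1 of complex III (-0.20 ± 0.062, adjusted p = 0.0962). No knockout sample had a list mean above the fl/fl median. Genes outside the lists included Coq10a, which binds coenzyme Q (-0.34 ± 0.077), Noct, a clock-controlled phosphatase (-0.41 ± 0.089), and Mrps23 of the mitochondrial ribosome (-0.22 ± 0.052), each called. Without fl/fl replicate 1, 9 respiratory chain genes instead of 17 were lower at an unadjusted p under 0.05, and none was called. Without fl/fl replicate 3 or knockout replicate 5 the number lower was 11.

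Lists of absorption, mucus and detoxification also had medians below 0, with no member called. Of 26 epithelial ion and water transport genes 21 were below 0 (median -0.20), led by the sodium channel subunits Scnn1a (-0.36 ± 0.10, adjusted p = 0.0727) and Scnn1b (-0.56 ± 0.16, adjusted p = 0.0753). Their list mean was below the fl/fl median in every knockout sample. In the other direction, Slc12a2, the chloride cotransporter of crypt cells, differed by 0.22 ± 0.061 (adjusted p = 0.0692). All 18 goblet cell genes were below 0 (median -0.20), with the chloride channel Best2 (-0.60 ± 0.20, adjusted p = 0.133) and the trefoil factor Tff3 (-0.25 ± 0.11, adjusted p = 0.279) among the 4 smallest p. Of 29 xenobiotic metabolism genes 25 were below 0 (median -0.21), for example the carboxylesterase Ces2a (-0.53 ± 0.18, adjusted p = 0.145). Of the 18 colonocyte genes with a value, 15 were below 0 (median -0.13).

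**Figure D4:**
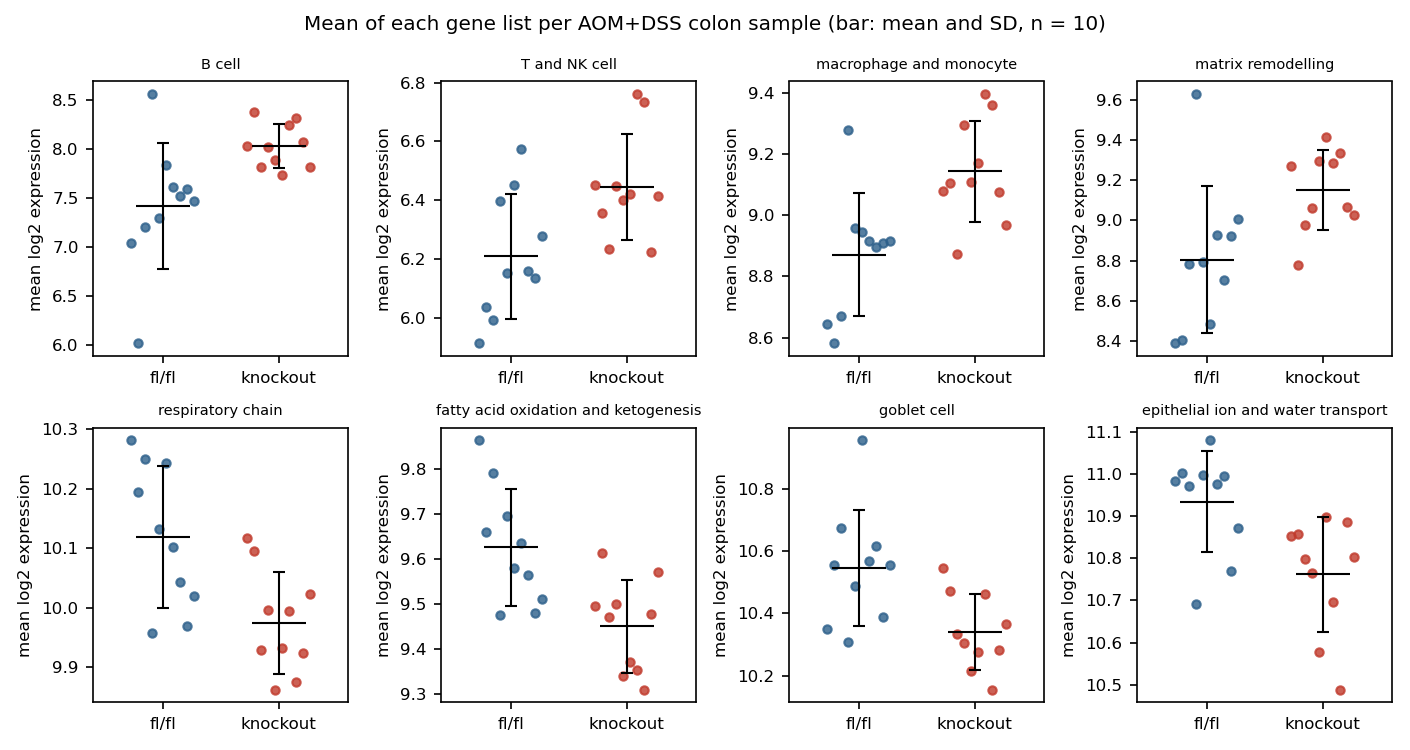
Mean log2 expression of 8 gene lists (y axis) in each fl/fl and knockout AOM+DSS sample (points), with the group mean and SD as bars, n = 10 per group. For B cell genes the knockout samples lay between 7.73 and 8.37, inside the fl/fl range of 6.02 to 8.56.

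The 15 largest rises are given next by what each gene is known for. Ptprc, the CD45 phosphatase of all leucocytes, was at 9.84, 10.11 and 10.61 in knockout and 8.56, 9.63 and 10.41 in fl/fl samples (0.68 ± 0.17, adjusted p = 0.0448). Stat4, which relays interleukin-12 signals in T and NK cells, was at 7.29, 7.87 and 8.41 against 6.12, 7.15 and 8.19 (0.72 ± 0.16, adjusted p = 0.0312). For both, all 10 knockout samples exceeded the fl/fl median and 2 exceeded fl/fl replicate 4, the highest of its group, as it was in 14 of the 15 genes. Also among them were Il5ra, the interleukin-5 receptor of eosinophils (0.62 ± 0.14), Fcrl1 of B cells (0.61 ± 0.15), the receptors Gpr171 (0.70 ± 0.16) and Gpr65 (0.61 ± 0.14), the GTPase regulator Arhgap15 (0.68 ± 0.15), Gimap6 (0.59 ± 0.14) and Ly6i (0.66 ± 0.16). The secreted factors Chrdl2, an antagonist of bone morphogenetic proteins (0.87 ± 0.21), Spon1 (0.60 ± 0.14) and Igfbp5 rose as well, as did Nlrp1c-ps (0.73 ± 0.17), BE692007 (0.92 ± 0.24) and AI662270 (0.59 ± 0.15). Adjusted p of the 15 lay between 0.0254 and 0.0494, and each of the 15 lost its call when some 1 sample was left out.

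The B cell list had the highest median of all 47 lists, 0.60, yet none of its 13 genes with a value was called and 12 were higher at an unadjusted p under 0.05. The leading members were Cd22, an inhibitory receptor (0.71 ± 0.20, adjusted p = 0.0677), the adaptor Bank1 (0.87 ± 0.24, adjusted p = 0.0692) and the kinase Blk (0.49 ± 0.16, adjusted p = 0.109). Fl/fl samples were far more spread than knockout samples. Cd22 ranged from 6.33 to 8.80 in fl/fl and from 7.98 to 8.81 in knockout samples, with fl/fl replicate 2 lowest and replicate 4 highest in the list mean. Without fl/fl replicate 4, 7 of the 13 were called. In untreated colon the median of the same genes was -0.11. For 12 of 13 the change of the genotype difference had an unadjusted p under 0.05, beside 6.09% of all genes, and none was called. The 12 rest on the same samples, so they are not separate results.

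Of 21 T and NK cell genes, 2 were called: the costimulatory receptor Icos (0.49 ± 0.11, adjusted p = 0.0312) and the NK cell receptor Klrk1 (0.45 ± 0.11, adjusted p = 0.0491). A further 8 were higher at an unadjusted p under 0.05, among them Cd3e (0.50 ± 0.16, adjusted p = 0.119), and the median was 0.19. All 16 macrophage and monocyte genes were above 0 (median 0.25). Of these, Mpeg1, which encodes the pore-forming perforin-2, was called (0.52 ± 0.12, adjusted p = 0.0312), and the monocyte chemokine receptor Ccr2 (0.56 ± 0.14, adjusted p = 0.0506) and Csf1r (0.29 ± 0.086, adjusted p = 0.0852) were not. Among 11 dendritic cell genes the lymph node homing receptor Ccr7 was called (0.52 ± 0.12, adjusted p = 0.0303), and among 7 eosinophil genes Il5ra was. The eosinophil receptor Ccr3 differed by 0.45 ± 0.13 (adjusted p = 0.0727), while the granule genes Epx and Prg2 differed by -0.05 ± 0.088 and 0.07 ± 0.071. Of 16 neutrophil genes none was called (median 0.49), and 7 were higher at an unadjusted p under 0.05. That count rested on single samples: it was 0 without fl/fl replicate 1 or 2, 1 without fl/fl replicate 6 or knockout replicate 6 or 7, 3 without fl/fl replicate 8 or knockout replicate 1, 5 or 8, and 11 without fl/fl replicate 4 or knockout replicate 2.

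Among the 107 called genes in none of the lists, some with known roles in leucocytes and some cytokine receptors are named here. They were chosen after their values were seen, and the 107 were not counted by cell type. Called higher were Btk, a kinase of B cells and myeloid cells (0.53 ± 0.14), Spi1, the PU.1 transcription factor (0.36 ± 0.091), the interleukin-10 receptor Il10ra (0.47 ± 0.12), the interleukin-21 receptor Il21r (0.55 ± 0.13) and the DNA-sensing adaptor Sting1 (0.47 ± 0.12). The interleukin-1 receptor Il1r1 (0.55 ± 0.12) and the oncostatin M receptor Osmr (0.52 ± 0.13) rose too. The cytokines themselves were not called. Of 24 cytokine genes 7 were higher at an unadjusted p under 0.05, for example Tgfb1 (0.33 ± 0.096, adjusted p = 0.0822) and Il1a (0.64 ± 0.23, adjusted p = 0.166), and without knockout replicate 7 the count was 4. Of 27 chemokine genes 12 were higher at that level, led by Cxcl16 (0.28 ± 0.076, adjusted p = 0.0575) and Ccl3 (0.71 ± 0.19, adjusted p = 0.0586). Of 25 genes of the interferon-gamma response and MHC II, 23 were above 0 and none was called, for example Cxcl10 (0.79 ± 0.29, adjusted p = 0.175). The median of that list was 0.20, and it was -0.119 with the T and NK cell mean as a covariate. At an unadjusted p under 0.05, 7 of its genes were higher, and 3 without knockout replicate 7 or 8.

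Called genes were set beside the leucocyte lists directly. When the mean of the T and NK cell list, the macrophage and monocyte list or the B cell list was added to the model as a covariate, 2 genes were called in each case, Insr and Mt1. The 120 genes kept the sign of their difference in all 3 fits, but their median size went from 0.45 to 0.29, 0.25 and 0.30. They were picked for their differences in these same samples, so the kept sign is no further support. Adding the colonocyte mean left 14 called genes and a median size of 0.42. The T and NK cell, macrophage and B cell means themselves lay above the fl/fl median in 10, 9 and 10 of 10 knockout samples. Such a covariate takes up part of the genotype difference whatever its cause, so these fits cannot decide why a call was lost. The part of these cells in the results was not tested.

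In the list of IGF ligands and binding proteins, which also holds Igf2r and Igfals, 2 of 11 genes were called, both higher. Igfbp4, a binding protein that holds insulin-like growth factors away from their receptor, was at 10.12, 10.66 and 10.90 in knockout and 9.68, 10.01 and 11.01 in fl/fl samples (0.53 ± 0.11, adjusted p = 0.015). Igfbp5, which also binds matrix, was at 10.22, 10.75 and 11.19 against 9.49, 9.88 and 10.90 (0.65 ± 0.15, adjusted p = 0.0331). In both, all 10 knockout samples lay above the fl/fl median while fl/fl replicate 4 was the highest of its group. The ligand gene Igf1 differed by 0.42 ± 0.12 (adjusted p = 0.0692) and Igfbp7 by 0.23 ± 0.072 (adjusted p = 0.0972). Igfbp2 (-0.54 ± 0.19, adjusted p = 0.143) and Igfbp6 (-0.40 ± 0.15, adjusted p = 0.195) lay on the other side.

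All 23 matrix remodelling genes were above 0 (median 0.32). One was called, the gelatinase Mmp2, at 10.35, 10.67 and 10.91 in knockout and 9.74, 10.19 and 10.85 in fl/fl samples (0.44 ± 0.10, adjusted p = 0.0312), and 14 were higher at an unadjusted p under 0.05. The stromelysin Mmp3 differed by 1.04 ± 0.27 (adjusted p = 0.0515), the crosslinking enzyme Lox by 0.66 ± 0.20 (adjusted p = 0.0839) and the collagen Col3a1 by 0.35 ± 0.11 (adjusted p = 0.0883). Of 16 fibroblast genes none was called, with Pdgfra, the receptor of platelet-derived growth factor (0.39 ± 0.10, adjusted p = 0.0503), and Pdpn (0.35 ± 0.091, adjusted p = 0.0521) next to the threshold. The fl/fl sample with the highest matrix mean, replicate 4 at 9.63, was followed by 1 at 9.01. Without it 12 matrix genes and 6 fibroblast genes were called. For smooth muscle genes, all 15 were below 0 (median -0.17) and none called.

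Mt1, a metallothionein that binds zinc and copper, kept its call with each of those covariates and with each sample left out. It was at 11.62, 11.77 and 11.81 in knockout and 10.65, 11.41 and 11.64 in fl/fl samples (0.44 ± 0.077, adjusted p = 0.00486). For 9 of 10 knockout samples the value was above the highest fl/fl sample, and the knockout SD of 0.055 was far below the fl/fl SD of 0.29. In knockout samples 208 genes (0.938%) were brighter than Mt1. With the T and NK cell, macrophage or B cell mean as a covariate its difference was 0.52, 0.48 and 0.47. It lost its call in 1 of the 35 alternatives, the fit of the 20 samples alone (adjusted p = 0.102). In untreated colon the difference was 0.30 ± 0.077 with an unadjusted p of 0.000257 that did not survive adjustment (adjusted p = 0.397). Its neighbour and relative Mt2 did not follow, at 11.12, 11.63 and 12.11 against 11.05, 11.68 and 12.17 (0.037 ± 0.13, adjusted p = 0.951).

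Metallothionein promoters hold metal response elements, the sites of the zinc-sensing factor MTF1. The stretch of the Mt1 promoter with the matches to the element's core is shown because Mt1 was the rise that kept its call most often. It lies on the forward strand at chr8:94179066-94179115 (RefSeq, GRCm38.p6), from 23 bases before to 27 bases after the annotated start, and capitals mark the core matches.
Mt1: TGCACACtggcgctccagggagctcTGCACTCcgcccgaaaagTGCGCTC
The core was searched as TGCACNC or TGCGCNC on both strands, in the window from 250 bases before to 50 bases after each start. In that window Mt1 had 3 matches and Mt2, which did not differ, had 4. Both counts rest on the annotated starts, which were not checked, and matches outside the window were not counted. The 2 counts are therefore not a firm comparison of the promoters. Of all 32851 promoters of that length, 1.97% had at least 3 and 25.7% at least 1.

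Genes of lipid export were also called, chosen here after their values were seen. Abca1, which loads cholesterol onto lipoproteins, was at 8.61, 8.88 and 9.30 in knockout and 7.89, 8.40 and 8.81 in fl/fl samples (0.52 ± 0.099, adjusted p = 0.00782), with 8 of 10 knockout samples above the highest fl/fl sample. Apoe, the apolipoprotein that accepts this lipid, differed by 0.32 ± 0.067 (adjusted p = 0.0254). With the macrophage mean as a covariate Abca1 differed by 0.44 (adjusted p = 0.394) and Apoe by 0.16 (adjusted p = 0.835). No cholesterol synthesis gene was called, and 9 of its 18 genes lay on each side of 0.

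Of 31 DNA replication and mitosis genes all were above 0 (median 0.17), none was called and 8 were higher at an unadjusted p under 0.05. Examples are the centromere genes Cenpf (0.28 ± 0.10, adjusted p = 0.188) and Cenpe (0.34 ± 0.13, adjusted p = 0.199). Without fl/fl replicate 8 that count was 1 instead of 8. It was 4 without fl/fl replicate 1 or knockout replicate 6, and 5 without fl/fl replicate 5 or knockout replicate 1, 7, 8 or 10. Of 23 genes of Wnt feedback and crypt stem cells none was called, with Lgr5 at 0.37 ± 0.13 (adjusted p = 0.145). Medians of the fatty acid synthesis, glycolysis, p53, unfolded protein and ATF4 lists lay between -0.063 and 0.054, with no call, and those of p53 and ATF4 changed sign under some alternatives.

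Far fewer genes were called for the same genotype contrast elsewhere. In untreated colon 1 gene was called (0.00451%), Insr at -0.94, with 1114 genes (5.02%) at an unadjusted p under 0.05. In tumors 2 were called (0.00902%), Insr at -0.65 and Gm17250 at -0.80, with 990 genes (4.46%) at an unadjusted p under 0.05. The test of the difference itself by limma called 0 of 22180 genes for AOM+DSS against untreated colon, with 1351 (6.09%) at an unadjusted p under 0.05. It called 0 against tumors, with 1470 (6.63%) at an unadjusted p under 0.05. No gene can therefore be called particular to AOM+DSS colon. Of the 93 genes higher after AOM+DSS, 77 had the same sign in untreated colon and 58 in tumors, and of the 27 lower, 24 and 19. Over all genes the sign was shared by 53.5% and 53.7%. The median difference of the 93 was 0.084 in untreated colon and 0.020 in tumors, and that of the 27 was -0.21 and -0.053. Lists did not all have smaller medians in untreated colon. The interferon-gamma and MHC II list had a median of 0.32 there against 0.20 after AOM+DSS, with 8 against 7 genes higher at an unadjusted p under 0.05. The type I interferon list had 0.22 against 0.14, with 4 against 1. Neither list had a call in AOM+DSS colon, and for no gene of either did the change between the conditions have an unadjusted p under 0.05. Klb differed in untreated colon by -0.61 ± 0.15 with an unadjusted p of 0.000171, whereas Pm20d1 differed there by 0.018 ± 0.12. The change of the Pm20d1 difference between the conditions had an unadjusted p of 0.000199 and was not called (adjusted p = 0.576). The spread differed too: the median within-group SD of the 93 was 0.276 over the 20 AOM+DSS samples and 0.216 over the other 37, beside 0.171 and 0.185 for all genes. For the 27 lower genes it was 0.307 and 0.221. The SD over the 20 was more than 1.5 times that over the 37 in 25 of the 93 and 7 of the 27. For such genes the SE and adjusted p given here overstate the precision of the comparison.

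**Figure D5:**
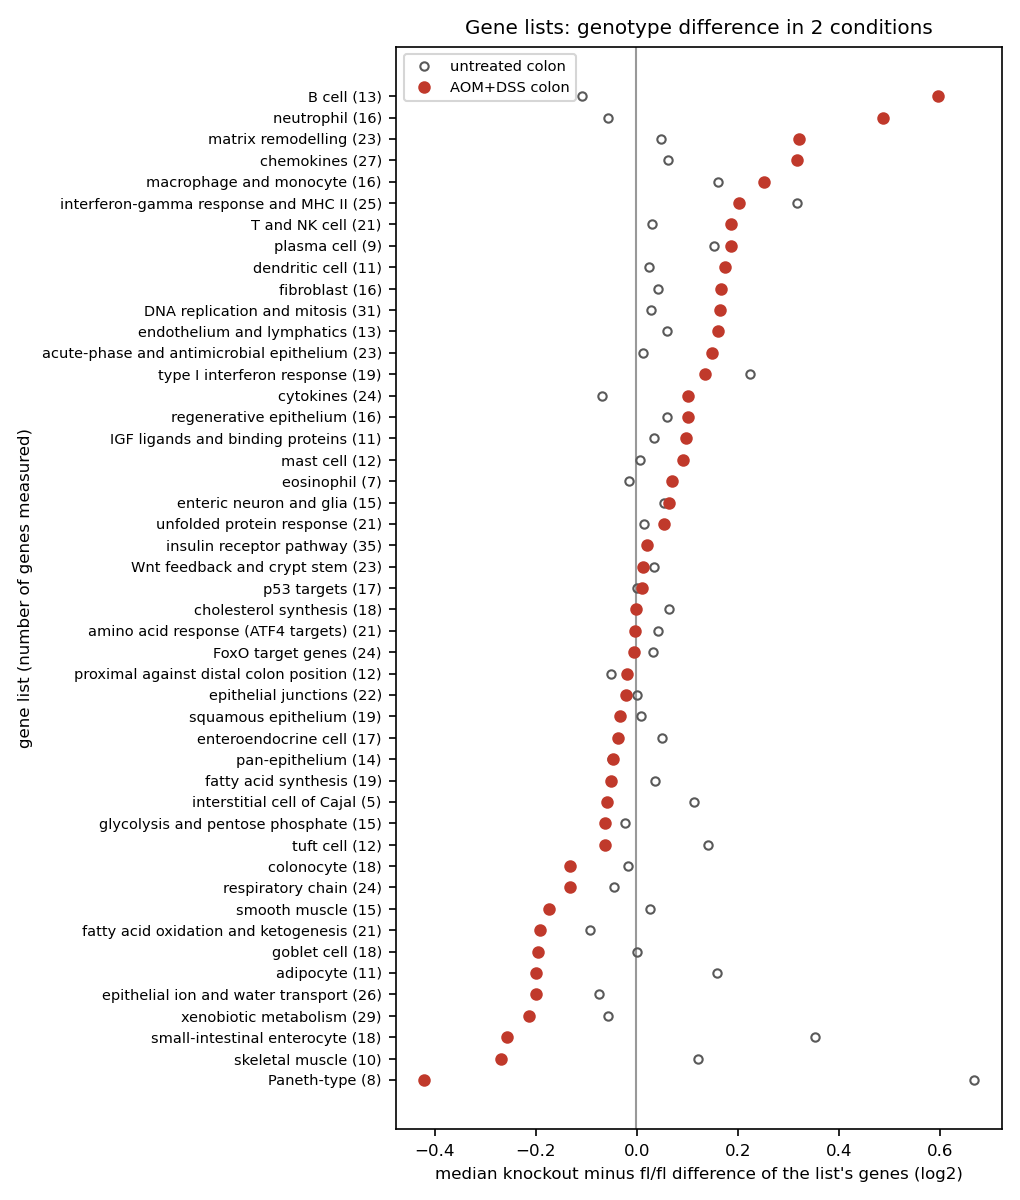
Median knockout minus fl/fl difference (x axis, log2) of the genes of each of 47 lists (y axis, number of genes with a value in brackets) in AOM+DSS colon (filled) and untreated colon (open); the grey line is the median of all genes in AOM+DSS colon. B cell genes had the highest AOM+DSS median, 0.60, and -0.11 in untreated colon.

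The 5 protein-coding genes that follow Insr in the RefSeq gene order used here are Arhgef18, Pex11g, Tex45, Zfp358 and Mcoln1. Their differences lay between -0.16 and 0.011, and none was called, the smallest adjusted p being that of the peroxisomal gene Pex11g (adjusted p = 0.14).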

How the data were processed

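Whole-transcript array values of 57 samples were used, 20 of them in the comparison. The authors deposited 1 log2 value per probe set and array, and the submitters' processing notes name RMA. RMA quantile-normalizes the arrays, so a shift of the whole array cannot be seen, and its version is not given here. Of 41345 probe sets, 23521 have 1 symbol, and the brightest per gene left 22180 genes with no filter on low values. The model was fitted with limma 3.58.1 in R 4.3.3 on the 6 groups of all 57 arrays (51 residual degrees of freedom), two-sided, with Benjamini-Hochberg adjustment, and checked on simulated arrays. These had independent normal noise for each gene and the same spread in all groups. They do not test the error rate with genes that vary together, unequal spread or single influential samples. The labels call samples biological replicates. Array medians lay between 5.95 and 6.02 in knockout and between 5.93 and 6.00 in fl/fl samples, so the groups were not fully level. No 2 arrays correlated above 0.9945. The number of arrays limits the precision. Of 870 listed genes 793 had a value, and the rest are not reported here. The members, the 47 lists and the naming rule were chosen with earlier results of these data known. The rule names Insr, Igf1r, Irs1 and Irs2, the 15 largest rises and falls, up to 4 list members of smallest p with every called member, and the genes beside Insr. Other genes named were chosen after their values were seen.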

Additional observations from a re-analysis of the deposited data

Results flagged for a closer look

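In 160 sets of 10 values (33 genes and 47 list means in both genotypes), 11 held a sample whose gap to the nearest other was a larger share of the range than Dixon's critical value for 10 samples, a mark that chance gives about 1 set in 20. Fl/fl replicate 4 was highest in matrix remodelling (9.63, others up to 9.01), endothelium and lymphatics (8.75, others up to 8.33) and Wnt feedback and crypt stem (8.33, others up to 8.09), and fl/fl replicate 7 in small-intestinal enterocyte genes (10.08, others up to 7.59). Fl/fl replicate 7 was also highest in xenobiotic metabolism (9.00, others up to 8.56) and fatty acid synthesis (9.52, others up to 9.28). Fl/fl replicate 6 was lowest in IGF ligands and binding proteins (8.07, others from 8.29), and fl/fl replicate 2 in enteric neuron and glia genes (6.61, others from 6.83). Knockout replicate 2 was lowest in chemokines (7.69, others from 8.20) and cytokines (5.83, others from 6.14) and highest in Cyp2c40 (4.0, others up to 3.51). Their cause was not tested.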

How the results depend on the processing

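Of the 35 alternatives, Insr kept its direction and call in each (-0.874 to -0.794), and with 1 sample left out it ranged from -0.874 to -0.802. The count of 120 calls (93 higher, 27 lower) was far less steady. With 1 sample left out it ranged from 9 to 816, the higher calls from 4 to 589 and the lower from 5 to 227. It was 45 (24 higher) with arrays shifted to 1 median, 207 (156 and 51) without the 4607 dim genes and 485 (348 and 137) with array weights. A further quantile normalization gave 44 lower calls. With the squamous mean as a covariate it was 249 (186 and 63), with the smooth muscle mean 78 (59 higher), and with the B cell mean 2 (1 and 1). The 20 arrays alone gave 2 (0 and 2). Covariates chosen after seeing the data gave 2 (1 and 1) for the T and NK cell mean, 2 (1 and 1) for the macrophage mean and 14 (8 and 6) for the colonocyte mean, and leaving out fl/fl replicate 7 and knockout replicate 10 gave 146 higher calls. The cause of these shifts was not tested. Replicate numbers did not meet the bar for pairing (every pair over 0.1): same-numbered deviations correlated between -0.087 and 0.181, 4 of 10 above 0.1, with a mean of 0.072 against -0.008 for different numbers, and 0 of 20 samples correlated best with its own number. With the replicate block 188 genes were called (142 and 46). For AOM+DSS against tumors, 1 gene was called higher with the replicate block (Prrg1) and 1 in the 37 arrays of those conditions (Ica1l), where the reported fit called 0. The shift to 1 median moved the median of all genes to -0.027. No named gene reversed its sign where called. Dim probe sets are compressed by RMA, so small changes there may be missed.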

Other observations

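Kmo, Kynu and Haao, enzymes that act in the kynurenine route of tryptophan breakdown were among the 93 genes called higher, and were picked out after their values were seen. Kmo, which hydroxylates kynurenine, was at 6.74, 6.96 and 7.30 (lowest, median and highest, log2) in knockout and 5.74, 6.28 and 7.32 in fl/fl samples (0.55 ± 0.14, adjusted p = 0.0496 by limma). Kynu, the kynureninase, differed by 0.50 ± 0.12 (adjusted p = 0.0356) and Haao, which acts on the next product, by 0.43 ± 0.11 (adjusted p = 0.0478). Of the 12 genes of the route looked at, these 3 were called, 8 had a difference below 0 and Ido1 was above it. In untreated colon the 3 differences were 0.10, 0.019 and -0.018. The entry enzymes were not called: Ido1 differed by 0.17 ± 0.35 (adjusted p = 0.905), and Tdo2 and Ido2 by -0.010 ± 0.063 and -0.014 ± 0.10. Afmid, which makes kynurenine, differed by -0.18 ± 0.073 (adjusted p = 0.248), and Acmsd, which draws on the product of Haao, by -0.10 ± 0.077 (adjusted p = 0.646). Kyat1, which takes kynurenine to kynurenic acid, differed by -0.45 ± 0.14 (adjusted p = 0.0975). All 3 calls were lost with the T and NK cell, macrophage or B cell mean as a covariate. So were those of every other called gene but Insr and Mt1, and the 3 means themselves were higher in knockout samples. With 1 sample left out in turn, Kmo, Kynu and Haao were called in 7, 10 and 6 of 20 fits. In the limma fit of the 20 samples alone their adjusted p was 0.134, 0.154 and 0.139.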
